A study of Mus musculus with 39 samples.

Results

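The comparison described here is miR-126 knockout leukaemia against AE9a leukaemia in the first transplant passage. Its members were chosen by array title: 3 mice of the group miR-126KO+AE9a-P1 and 3 mice of the group AE9a-P1, which make 6 of the 39 arrays of the series. In the whole study, leukaemias with AE9a alone, with AE9a plus added miR-126 and with AE9a on a miR-126 knockout background were carried through 4 serial passages of bone marrow transplantation in mice, with 3 mice per group and passage. For every array, donor cells carrying the CD45.1 surface form were sorted from the marrow of recipients that had reached end stage, and their total RNA was hybridised to an Affymetrix mouse gene array. Both groups of this comparison carry AE9a, so they differ, as labelled, in the miR-126 knockout, given without further detail of the allele. Beside them, 3 passage 1 mice with added miR-126 (AE9a+miR-126-P1) and 3 normal controls of passage 1 (NC) are given for orientation. The age and sex of the mice, and which donor seeded which recipient, are not stated in the labels, and the p-values therefore reflect variation among the recipients.

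AE9a is a truncated splice form of AML1-ETO, the fusion protein of t(8;21) acute myeloid leukaemia, and it drives leukaemia in mice when it is introduced into donor marrow cells. miR-126 is a microRNA encoded in an intron of Egfl7; it is known in blood for restraining the cycling of stem cells and in endothelium for dampening the brakes on ERK signalling, such as Spred1. Much of what follows concerns the type I interferon response, in which secreted interferon acts through its receptor on a transcription factor complex that binds response elements in promoters and switches on antiviral genes.

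The microRNA whose knockout the labels give for one group is shown first, with the bases of its seed (bases 2 to 8, which pair with target transcripts) in capitals. Its position in RefSeq is chr2:26591402-26591423 on the plus strand of GRCm38.p6.
mmu-miR-126a-3p: uCGUACCGugaguaauaaugcg
The promoters of 4 interferon response genes follow, chosen as the largest rises on the interferon lists among those whose promoter window holds the letters TTTC, any 2 bases and TTTC again, or GAAA, any 2 bases and GAAA for the other strand, a short form of the interferon-stimulated response element. Each is given as the 200 bases before the RefSeq start of the gene in GRCm38.p6, 5′ to 3′ on the strand of the gene, with matches in capitals.
Oas1g, chr5:120887614-120887813, minus strand: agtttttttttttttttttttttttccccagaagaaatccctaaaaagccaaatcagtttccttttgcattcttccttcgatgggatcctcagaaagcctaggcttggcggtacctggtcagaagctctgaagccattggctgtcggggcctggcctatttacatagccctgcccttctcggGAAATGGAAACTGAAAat
Slfn5, chr11:82951902-82952101, plus strand: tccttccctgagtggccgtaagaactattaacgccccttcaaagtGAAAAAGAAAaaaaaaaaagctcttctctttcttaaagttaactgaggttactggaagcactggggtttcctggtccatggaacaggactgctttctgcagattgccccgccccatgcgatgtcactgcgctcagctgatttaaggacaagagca
Ifit1, chr19:34640689-34640888, plus strand: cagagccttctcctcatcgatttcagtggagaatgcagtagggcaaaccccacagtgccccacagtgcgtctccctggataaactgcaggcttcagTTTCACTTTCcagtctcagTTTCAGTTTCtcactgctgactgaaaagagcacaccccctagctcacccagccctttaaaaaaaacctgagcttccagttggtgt
Oas3, chr5:120777660-120777859, minus strand: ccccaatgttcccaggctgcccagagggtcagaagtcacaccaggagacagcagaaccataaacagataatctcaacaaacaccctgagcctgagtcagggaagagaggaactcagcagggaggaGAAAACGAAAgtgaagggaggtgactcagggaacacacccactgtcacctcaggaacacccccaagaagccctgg
Oas1g holds 2 overlapping matches, the nearer of which begins 12 bases before the start. Ifit1 holds 2 matches that begin 104 and 85 bases before the start. The single match of Slfn5 begins at 155 and lies beside a run of A, and that of Oas3 begins at 75.

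The values are log2 expression values after RMA, an array method that scales all arrays to one distribution and summarises the probes of each gene, so a difference of 1 is 2-fold and levels of different genes cannot be set against each other. The SD of the log2 values over all probe sets was 1.96 to 2.01 in the knockout mice and 1.86 to 2.00 in the AE9a mice. Correlations between arrays were 0.9645 to 0.9885 within the knockout group, 0.9636 to 0.9866 within the AE9a group and 0.9338 to 0.9688 between the groups, and 0 pairs of arrays were identical. The sorted cells showed pan-haematopoietic genes (Ptprc, Spi1) at a mean of 10.39 to 10.67 in knockout mice and 10.47 to 10.71 in AE9a mice, and marker genes of stroma and endothelium at 5.35 to 5.42 and at 5.43 to 5.69.

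The knockout could not be checked on these arrays. The probe set shared by Mir126a and Egfl7 in the annotation read 2.86, 2.96 and 2.96 in knockout mice and 2.79, 2.76 and 2.92 in AE9a mice. Both groups lay near the bottom of the array's range, at the level of the normal controls (2.97, 3.04 and 3.88), while mice with added miR-126 read 8.48, 8.27 and 8.18. Egfl7, the host gene, read 5.29, 5.26 and 5.61 in knockout mice and 5.79, 5.94 and 5.72 in AE9a mice, a log2 difference of -0.43 ± 0.21 (SE, limma, adjusted p = 0.444).

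Knockout mouse 3 stood apart from knockout mice 1 and 2. Its mean over 8 neutrophil markers was 10.88, against 9.31 and 8.97 in the other knockout mice, and the AE9a mice read 11.51, 11.53 and 11.5. Its erythroid and mast cell or basophil markers were the highest of the 6 arrays, and 41 of 54 interferon response genes were lower in it than in both other knockout mice. The X-linked transcript Xist read 11.31, 11.45 and 5.37 in knockout mice 1, 2 and 3 and 10.76, 10.93 and 11.54 in AE9a mice. The Y-linked gene Eif2s3y ran the other way, at 4.02, 4.16 and 8.68 in knockout mice and 7.51, 7.8 and 6.04 in AE9a mice. The AE9a mice were thus high for both genes. The part of sex in the results below was not tested. The counts of the gene lists are given without knockout mouse 3 as well, but that fit sets the Y-linked genes further apart. In it Eif2s3y differed by -3.02 (limma adjusted p = 0.022), Uty by -1.51 and Kdm5d by -1.14. With all mice these differences were -1.49 (adjusted p = 0.55), -0.26 and -0.05. The difference of Xist went from -1.70 with all mice to 0.30 without knockout mouse 3.

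At passage 1, 463 of 22180 genes passed an adjusted p under 0.05 in limma's empirical Bayes test. Of these, 332 were higher in knockout leukaemia (1.5% of all genes tested) and 131 were lower (0.591%). The change reached 2-fold for 277 higher and 108 lower genes and 4-fold for 82 higher and 40 lower genes. All 3 knockout mice lay above all 3 AE9a mice for 330 of the 332 higher genes, and below them for 131 of the 131 lower genes, where 11.8% and 11.7% of all genes tested separate in those directions. The lean towards higher genes was smaller under other scalings: 443 higher and 351 lower with cyclic loess, 291 and 214 with quantile normalization, and 524 and 439 with array spread as a covariate. The count rests on individual mice. It was 547 without knockout mouse 3, 135 and 132 without knockout mice 1 and 2, and 199, 216 and 233 without AE9a mice 1, 2 and 3.

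**Figure D1:**
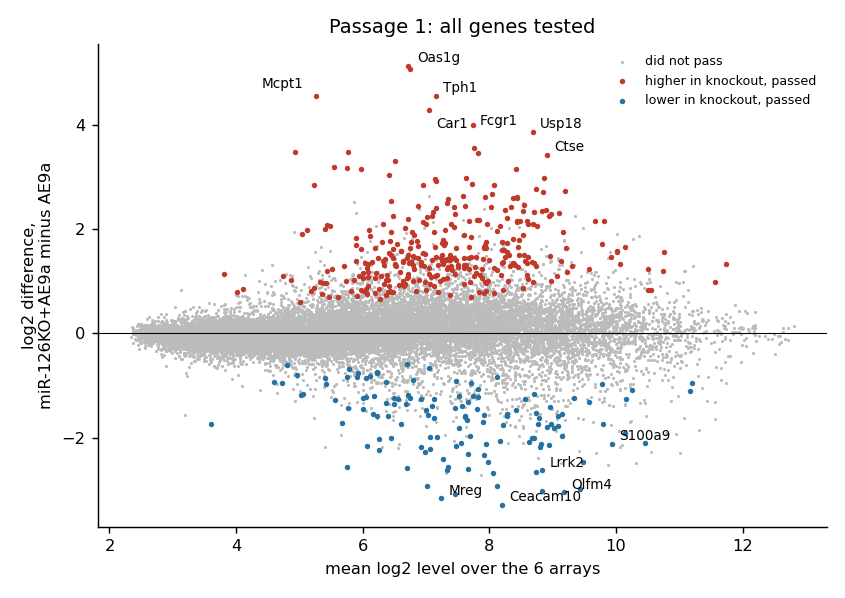
Each point is 1 gene; the horizontal axis is its mean log2 level over the 6 arrays and the vertical axis the log2 difference, knockout minus AE9a, with genes that passed in colour (332 higher, 131 lower). The rises reach above 5, where the topmost point is the predicted gene BC018473 (5.13) and the next is Oas1g (5.06), and the deepest fall is Ceacam10 at -3.29.

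Antiviral effector genes of the interferon response were among the largest rises. Oas1g, a member of the family of oligoadenylate synthetases that sense double-stranded RNA, read 9.59, 10.39 and 7.88 in knockout mice and 4.19, 3.84 and 4.64 in AE9a mice. The groups were far apart, with mouse 3 the lowest of the knockout mice, and the log2 difference was 5.06 ± 0.62 (33.5-fold, adjusted p = 1.12e-05). Its relative Oas2 read 9.59, 10.16 and 8.84 in knockout mice and 5.38, 6.14 and 6.44 in AE9a mice, a difference of 3.55 ± 0.44 (adjusted p = 1.12e-05). Oas3 rose by 2.44 ± 0.38 (adjusted p = 0.000289). The promoters of Oas1g and Oas3 are printed above because both genes rose and hold the letters. That rise and letters occur together in them follows from that choice and is no result. Because the Oas1 genes are close copies of one another, probes may be shared between them.

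Usp18, a protease that removes the ubiquitin-like modifier Isg15 and damps interferon receptor signalling, read 10.43, 11.21 and 10.22 in knockout mice and 6.85, 6.33 and 7.1 in AE9a mice. Every knockout mouse lay more than 3 log2 units above every AE9a mouse, and the difference was 3.86 ± 0.48 (14.5-fold, adjusted p = 1.34e-05). Slfn5, a Schlafen family gene induced by interferon, read 8.18, 8.41 and 7.88 in knockout mice and 4.87, 4.88 and 4.83 in AE9a mice, a difference of 3.29 ± 0.43 (adjusted p = 2.71e-05). Here the AE9a mice were almost identical to one another. Mx1 and Mx2, dynamin-like GTPases that block viruses, rose by 3.17 ± 0.37 and 3.15 ± 0.39 (adjusted p = 6.53e-06 and 1.12e-05).

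Ifi213, of the Ifi200 family of DNA-binding proteins, read 7.09, 8.57 and 5.78 in knockout mice and 3.97, 3.69 and 4.21 in AE9a mice (3.19 ± 0.57, adjusted p = 0.00148). Of the effectors named after their values were seen, Rtp4 rose by 2.96 ± 0.53 (adjusted p = 0.00166) and Ifit1, whose promoter holds 2 spaced matches, by 2.98 ± 0.69 (adjusted p = 0.0159). Rsad2, which encodes viperin, rose by 2.35 ± 0.64 (adjusted p = 0.0454). The calls of Ifit1 and Rsad2 were not stable. Each gene was retested in 17 other settings (6 of them without 1 mouse, others fitted to the 6 arrays of the comparison or to the 12 of passage 1 and normal controls alone), and below an adjusted p given after "up to" is the highest over these. Without knockout mouse 1 or 2, or AE9a mouse 1 or 2, both lost their call. Rsad2 lost it also without either remaining mouse, with cyclic loess or quantile normalization, and without the arrays with added miR-126. The adjusted p was up to 0.119 for Ifit1 and up to 0.229 for Rsad2. Oas1g, Oas2, Oas3, Usp18, Slfn5, Mx1, Mx2, Ifi213 and Rtp4 kept theirs in all 17 settings.

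The upstream parts of the pathway had smaller differences. Irf7, the transcription factor that amplifies interferon production, read 8.66, 9.62 and 8.49 in knockout mice and 6.61, 6.66 and 6.98 in AE9a mice. These groups did not overlap, and the difference was 2.17 ± 0.36 (4.51-fold, adjusted p = 0.000579). Stat2 and Irf9, which act in the DNA-binding complex of the pathway, rose by 1.74 ± 0.37 and 1.12 ± 0.24 (adjusted p = 0.00732 and 0.00866). Socs1, the feedback inhibitor of the receptor's kinases, rose by 1.41 ± 0.28 (adjusted p = 0.00452). Ifnar1, a chain of the interferon receptor, differed by 0.57 (adjusted p = 0.495). Stat2 and Irf9 each lost their call without knockout mouse 2 or AE9a mouse 1 (adjusted p up to 0.0791 and 0.0831), and Socs1 without knockout mouse 2 (0.0864).

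Among the sensors of foreign nucleic acid, Zbp1, which recognises Z-form nucleic acid, read 8.62, 9.48 and 7.78 in knockout mice and 6.1, 6.03 and 6.05 in AE9a mice (2.57 ± 0.39, adjusted p = 0.000256). Dhx58, which encodes the RIG-I-like protein LGP2, rose by 1.8 ± 0.34 (adjusted p = 0.00323). The endosomal receptors Tlr9 and Tlr3 rose by 1.48 ± 0.34 and 1.02 ± 0.23 (adjusted p = 0.0138 and 0.0127). For these 4 genes all 3 knockout mice lay above all 3 AE9a mice. Of them only Zbp1 kept its call in all 17 settings; Dhx58 lost it without knockout mouse 2 (0.0632), and Tlr9 and Tlr3 each lost it without either of knockout mice 1 and 2 and without AE9a mouse 3, with Tlr9 also lost without AE9a mouse 1 and Tlr3 without AE9a mouse 2 (up to 0.0852 and 0.0854).

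Interferon-induced chemokines, which draw T cells through Cxcr3, were mixed in their calls. Cxcl11 read 6.63, 8.55 and 7 in knockout mice and 5.82, 5.68 and 5.96 in AE9a mice (1.57 ± 0.33, adjusted p = 0.00708), and without knockout mouse 2, its highest value, the adjusted p was 0.132. Its call was also lost with the 6 arrays alone. Cxcl10 read 10.42, 10.73 and 10.29 in knockout mice and 8.25, 8.12 and 9.03 in AE9a mice. Its groups did not overlap, but the difference of 2.01 ± 0.57 did not pass (adjusted p = 0.0563).

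**Figure D2:**
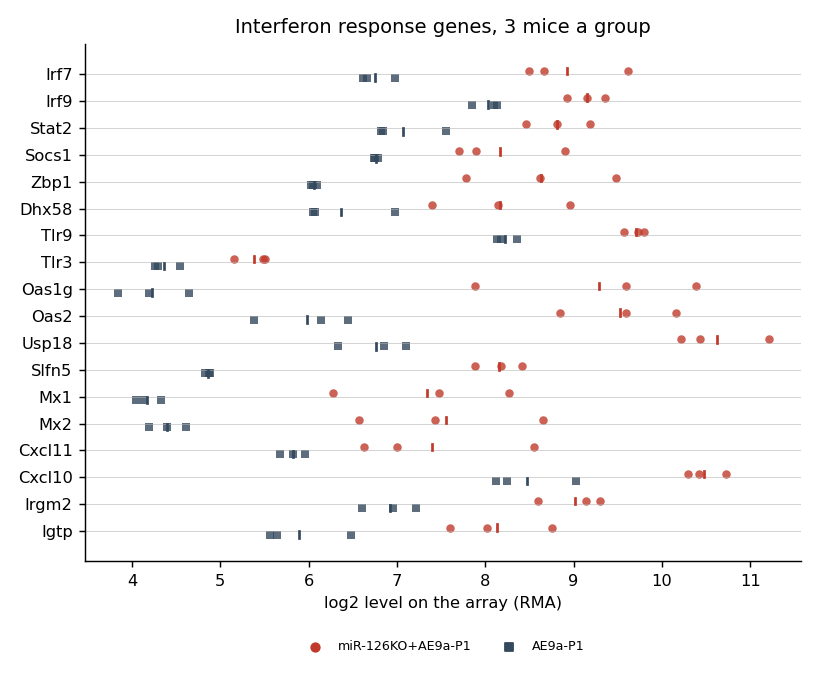
Log2 level of 18 interferon response genes in each mouse, with circles for knockout and squares for AE9a and a short bar at each group mean; knockout mice lie to the right of AE9a mice for every gene drawn. The gap is widest for Oas1g, where knockout mice read 7.88 to 10.39 and AE9a mice 3.84 to 4.64.

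Over the 4 interferon lists together (transcription factors and receptors, nucleic acid sensors, antiviral effectors, chemokines), 32 of 54 measured genes rose and 0 fell, where 1.5% of all genes tested rose. Their median difference was 1.40, and that of all genes tested was -0.01. Antiviral effectors had 21 of 29 higher (median 2.04), sensors 6 of 12 (median 1.14), transcription factors and receptors 4 of 9 (median 0.57) and chemokines 1 of 4. The knockout mice lay above all AE9a mice for 43 of the 54 genes and below them for 1, against 11.8% and 11.7% of all genes. The count was 30 without knockout mouse 3, 21 and 14 without knockout mice 1 and 2, and 21, 22 and 26 without AE9a mice 1, 2 and 3, and knockout mouse 2, which moved it the furthest, had the highest value of its group for 46 of the 54 genes. The lists were drawn up with earlier results of these data known, so the counts describe them and do not test them.

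The response element letters were searched in promoter windows of 300 bases (250 before and 50 after the start) from RefSeq, on both strands, with overlapping matches allowed. Of the genes on the interferon lists with such a window, 16 of 40 held at least 1 match (40.0%): 12 of 22 of those that rose (54.5%) and 4 of 18 of those that did not pass (22.2%). Matches occurred in 35 of 252 of all higher genes (13.9%), in 19 of 226 of higher genes outside the interferon and GTPase lists (8.41%) and in 2 of 97 of all lower genes (2.06%). Over all genes tested the share was 657 of 16990 (3.87%), and over all 32851 windows 3.44%. A match is a description of letters and not of binding.

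Genes that respond mainly to interferon gamma showed the same direction. Of 11 measured GTPases of the Irg and Gbp families, which act on the membranes around intracellular pathogens, 4 rose and 0 fell, where 1.5% of all genes tested rose, with a median of 0.89. Irgm2 read 9.14, 9.3 and 8.6 in knockout mice and 6.6, 6.95 and 7.22 in AE9a mice (2.09 ± 0.44, adjusted p = 0.00708), without overlap. Igtp rose by 2.23 ± 0.53, Irgm1 by 2.18 ± 0.49 and Gbp7 by 1.63 ± 0.41 (adjusted p = 0.0178, 0.0127 and 0.0308). The call of all 4 genes rests on individual mice: 4 passed without knockout mouse 3 or AE9a mouse 3, 1 without AE9a mouse 2, and 0 without knockout mouse 1, knockout mouse 2 or AE9a mouse 1. The count also depends on the processing: 2 passed with quantile normalization, where Igtp and Irgm1 lost their calls, and 7 with array weights. Quantile normalization called 291 of all genes tested higher and array weights 2027, against 332 in the main fit. All 6 GTPases with a window in the promoter set held the response element letters.

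Few genes of antigen presentation, which interferon also raises, passed. Over all genes tested 1.5% rose. Of 11 MHC class I presentation genes only Tap1, a subunit of the peptide transporter, passed, with a rise of 1.26 ± 0.32 (adjusted p = 0.03), which was lost without knockout mouse 1 or 2 or AE9a mouse 1 or 2 (up to 0.245). Psmb10, an immunoproteasome subunit, differed by 1.36 ± 0.39 (adjusted p = 0.0631). The median of the 11 genes was 0.75, and 6 were higher before adjustment. For 7 of them all knockout mice lay above all AE9a mice, against 11.8% of all genes. Of 7 class II presentation genes 1 passed, H2-DMa (1.37 ± 0.37, adjusted p = 0.0417), and its call was lost in 9 of 17 other settings (up to 0.278), among them each of the 5 that leave out a mouse other than knockout mouse 3.

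**Figure D3:**
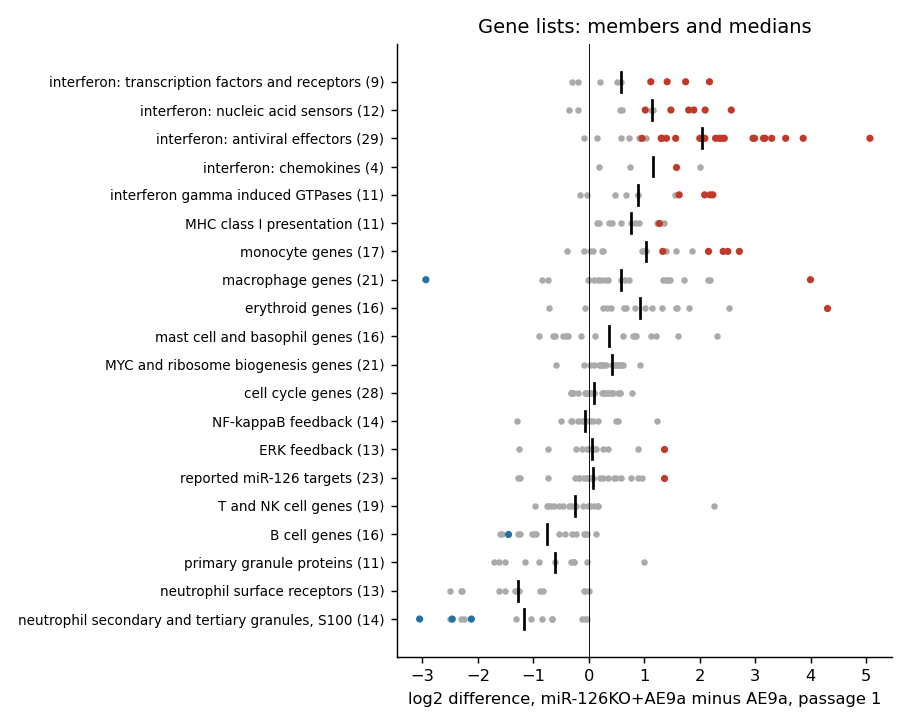
Log2 differences, knockout minus AE9a, of the members of 20 gene lists, with the number measured in brackets, coloured where a gene passed (red higher, blue lower) and with a black bar at the median of each list. The antiviral effectors have the highest median (2.04) and the neutrophil receptors the lowest (-1.28).

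A pair of mast cell chymases, neither of them on the mast cell list, were among the largest rises. Mcpt1, made by mucosal mast cells, read 8.2, 8.17 and 6.24 in knockout mice and 3.16, 3.07 and 2.71 in AE9a mice, a difference of 4.56 ± 0.51 (adjusted p = 4.34e-06). Mcpt2, its close relative, read 6, 6.97 and 7.05 in knockout mice and 3.26, 3.21 and 3.11 in AE9a mice (3.48 ± 0.42, adjusted p = 1e-05). AE9a mice were at the level of the normal controls, whose means were 3.33 for Mcpt1 and 3.06 for Mcpt2, and all knockout mice lay well above it. In the AE9a group Mcpt1 lay above 2.81% of all genes tested and Mcpt2 above 4.56%, near the bottom of the array's range, so the sizes of both differences are uncertain. The coding sequences of these chymases are alike, so probes may be shared.

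Tph1, the first enzyme of serotonin synthesis outside the brain, read 9.27, 9.01 and 9.99 in knockout mice and 5.05, 4.93 and 4.64 in AE9a mice (4.55 ± 0.67, adjusted p = 0.000147). Ddc, the next enzyme of that route, named after its values were seen, rose by 1.89 ± 0.31 (adjusted p = 0.000538). Mitf, a transcription factor of mast cells and melanocytes, also named afterwards, rose by 1.49 ± 0.27 (adjusted p = 0.00148). All of Mcpt1, Mcpt2, Tph1, Ddc and Mitf kept their calls in all 17 settings.

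The list of mast cell and basophil genes did not move as a whole. Of 16 measured members 0 passed in limma in either direction (at an unadjusted p under 0.05, 5 were higher and 1 was lower), with a median of 0.37. Ms4a2, the beta chain of the high-affinity IgE receptor, read 6.23, 6.68 and 8.25 in knockout mice and 4.82, 4.25 and 5.16 in AE9a mice (2.31 ± 0.66, adjusted p = 0.0586). Cpa3, a mast cell carboxypeptidase, overlapped between the groups, at 9.09, 6.71 and 9.63 in knockout mice and 6.49, 8.54 and 7.87 in AE9a mice (0.84 ± 0.74, adjusted p = 0.804). Tpsab1, a tryptase outside the list and named after its values were seen, read 5.03, 5.13 and 7.81 in knockout mice and 4.03, 4.05 and 4.19 in AE9a mice; it rose by 1.90 ± 0.44 (adjusted p = 0.0166). That call was lost in 6 of 17 other settings (up to 0.133): without any one of the AE9a mice, with the 6 or the 12 arrays alone, and without knockout mouse 3, where the difference was 0.99 (adjusted p = 0.132).

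Several monocyte genes rose as well. Fcgr1, the high-affinity IgG receptor of monocytes and macrophages and itself induced by interferon, read 10.03, 10.34 and 8.82 in knockout mice and 5.73, 5.9 and 5.58 in AE9a mice. The difference was 3.99 ± 0.45 (15.9-fold, adjusted p = 4.34e-06). Ccr2, the chemokine receptor by which monocytes leave the marrow, read 11.13, 10.66 and 10.43 in knockout mice and 9.25, 8.28 and 8.23 in AE9a mice (2.16 ± 0.37, adjusted p = 0.000859). For both genes every knockout mouse exceeded every AE9a mouse.

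Klf4, a transcription factor of monocyte differentiation, rose by 2.50 ± 0.54 (adjusted p = 0.00866), and Ms4a4c by 2.42 ± 0.47 (adjusted p = 0.00393). Vcan, which encodes the matrix proteoglycan versican and is made by monocytes, read 10.75, 9.5 and 10.38 in knockout mice and 8.52, 7.71 and 6.26 in AE9a mice, a rise of 2.71 ± 0.54 (adjusted p = 0.00507). F13a1, a coagulation factor subunit of monocytes, rose by 1.33 ± 0.36 (adjusted p = 0.0463). Its call is weak: it was lost without each of the 6 mice and with the replicate number as a block (up to 0.187). Klf4 lost its call without knockout mouse 1 or 2 (up to 0.0762) and Vcan without knockout mouse 1 or AE9a mouse 3 (up to 0.0669).

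In all, 5 of 17 monocyte genes rose and 0 fell (median 1.04), where 1.5% of all genes tested rose. Knockout mice lay above all AE9a mice for 10 of them, where 11.8% of all genes do. The count of rises was 10 with the 6 arrays, with the 12 arrays and with array weights, 7 without the arrays with added miR-126 and 8 without the 8 arrays of SD below 1.8. In that order these fits called 841, 887, 2027, 586 and 771 of all genes tested higher, against 332 in the main fit. The monocyte count was 4 without knockout mouse 3, 2 and 3 without knockout mice 1 and 2, 4 without AE9a mouse 1 or 2 and 3 without AE9a mouse 3. The mean of 5 monocyte markers was 10.94, 10.64 and 10.86 in knockout mice and 9.99, 9.99 and 9.79 in AE9a mice. In a bulk sample a larger share of monocytic cells and more RNA per cell cannot be told apart.

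Other genes of this lineage, named after their values were seen, rose too. Clec4a1 and Clec4a3, C-type lectin receptors of myeloid cells, rose by 2.85 ± 0.53 and 2.77 ± 0.56 (adjusted p = 0.00219 and 0.00507). Lpl, lipoprotein lipase, rose by 3.15 ± 0.52 (adjusted p = 0.000691), and Tnfrsf11a, the receptor RANK through which osteoclasts form, by 2.37 ± 0.47 (adjusted p = 0.00409). Ocstamp, a protein of osteoclast fusion, rose by 1.97 ± 0.35 (adjusted p = 0.00145). Maf, a transcription factor of macrophages, rose by 1.75 ± 0.32 (adjusted p = 0.00191). These 6 genes kept their calls in all 17 settings.

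Few macrophage genes passed. Of 21 measured, 1 rose (Fcgr1) and 1 fell (Slc40a1), where 1.5% and 0.591% of all genes tested did. Before adjustment 7 were higher and 2 lower. The median of the macrophage genes was 0.58. Knockout mice lay above all AE9a mice for 10 and below them for 2, against 11.8% and 11.7% of all genes. Slc40a1, the iron exporter ferroportin, read 4.94, 4.68 and 6.99 in knockout mice and 8.6, 8.74 and 8.09 in AE9a mice (-2.94 ± 0.75, adjusted p = 0.0316); leaving out any mouse but knockout mouse 3 ended its call (up to 0.24). Inflammatory cytokines and chemokines had 0 of 19 genes past the threshold in limma, with a median of -0.07, and before adjustment 2 were higher and 2 lower. Feedback genes of NF-kappaB had 0 of 14 (median -0.06, with 1 higher and 1 lower before adjustment). Toll-like receptors outside the interferon lists, with their adaptors, had 0 of 10 (median 0.26, with 2 higher before adjustment).

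Several neutrophil genes were lower in the knockout leukaemias. Ceacam10, an adhesion molecule of the CEA family, read 6.24, 5.47 and 7.97 in knockout mice and 8.97, 10.16 and 10.42 in AE9a mice, a log2 difference of -3.29 ± 0.72 (9.79-fold lower, adjusted p = 0.0109). Olfm4, a protein of specific granules, read 6.93, 6.32 and 9.72 in knockout mice and 10.89, 11.16 and 10.07 in AE9a mice (-3.05 ± 0.81, adjusted p = 0.0407). Knockout mouse 3 was the highest of its group for both genes and close to the AE9a mice for Olfm4.

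S100a9, a subunit of calprotectin, read 8.47, 7.91 and 10.26 in knockout mice and 11.08, 10.93 and 10.98 in AE9a mice (-2.12 ± 0.55, adjusted p = 0.0359). Padi4, which citrullinates histones in neutrophil extracellular traps, fell by 2.46 ± 0.63 (adjusted p = 0.0308), Itgb2l, an integrin chain, by 2.68 ± 0.70 (adjusted p = 0.0366), and Stfa1, a protease inhibitor of the stefin A cluster, by 3.02 ± 0.79 (adjusted p = 0.0351). Stefin A genes are near copies, so their probes may be shared. Ltf, lactoferrin, read 9.4, 8.91 and 11.27 in knockout mice and 12.09, 12.17 and 12.22 in AE9a mice, and did not pass (-2.30 ± 0.67, adjusted p = 0.0687). Ly6g, the surface antigen that defines mouse neutrophils, read 6.79, 7.1 and 9.78 in knockout mice and 10.37, 10.38 and 10.4 in AE9a mice (-2.49 ± 0.94, adjusted p = 0.208).

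Of 14 genes of secondary and tertiary granules and S100 proteins, 3 fell and 0 rose, against 0.591% of all genes lower, with a median of -1.18 and knockout mice below all AE9a mice for 10. Of 13 neutrophil surface receptors 0 passed in limma and 8 were lower at an unadjusted p under 0.05, with a median of -1.28 and knockout mice below all AE9a mice for 8. Over all genes tested 11.7% separate that way. Other fits called more of these genes. With the 6 arrays, 5 granule genes and 3 receptors fell, with the 12 arrays 7 and 3, without the 8 arrays of SD below 1.8 6 and 2, and with array weights 11 and 10. These fits called 558, 383, 452 and 1432 of all genes tested lower, in that order, against 131 in the main fit. The fit without knockout mouse 3 called 177 lower. Without knockout mouse 3, 6 granule genes and 3 receptors fell, and the differences were larger: -4.00 for Ceacam10, -4.08 for Olfm4 and -2.81 for S100a9 (adjusted p = 0.0029, 0.00471 and 0.00426). Without any other single mouse 0 granule genes and 0 receptors passed. Olfm4, S100a9, Padi4, Itgb2l and Stfa1 lost their calls in each of those 5 fits (adjusted p up to 0.331), and Ceacam10 in 4 of them (up to 0.125). Stfa1 lost its call also with the 6 arrays alone, and Olfm4 with quantile normalization. Primary granule proteins, made earlier in neutrophil development, had 0 of 11 past the threshold in limma and a median of -0.61, with 1 higher and 4 lower before adjustment.

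**Figure D4:**
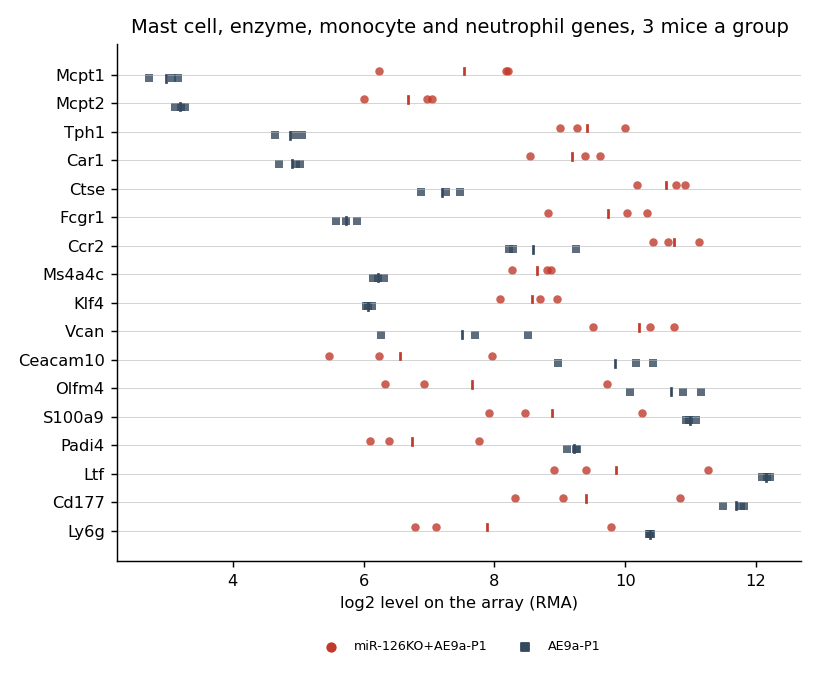
Log2 level of 17 mast cell, enzyme, monocyte and neutrophil genes in each mouse, circles for knockout and squares for AE9a, with a short bar at each group mean. Knockout mice lie to the right of AE9a mice from Mcpt1 to Vcan and to the left from Ceacam10 to Ly6g, where 1 knockout mouse, mouse 3, lies nearest the AE9a mice.

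Several other falls were large. Mreg, melanoregulin, read 5.5, 5.08 and 6.39 in knockout mice and 8.91, 9.02 and 8.54 in AE9a mice (-3.17 ± 0.49, adjusted p = 0.000324), and among the named falls it alone kept its call in all 17 settings. Its level in knockout mice was near that of the normal controls, 5.05. Lrrk2, a kinase mutated in familial Parkinson disease and expressed in myeloid and B cells, read 7.21, 7.06 and 8.27 in knockout mice and 10.14, 10.04 and 10.26 in AE9a mice (-2.63 ± 0.55, adjusted p = 0.0069), and lost its call without knockout mouse 1 or 2 (up to 0.0687).

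Clec4b2, a C-type lectin, fell by 3.09 ± 0.65 (adjusted p = 0.00704), Ankrd22 by 2.99 ± 0.74 (adjusted p = 0.0262), Dach1, a transcriptional repressor, by 2.94 ± 0.77 (adjusted p = 0.036), Tinagl1 by 2.66 ± 0.58 (adjusted p = 0.0102) and Fbp1, a gluconeogenic enzyme, by 2.63 ± 0.70 (adjusted p = 0.0387). All knockout mice lay below all AE9a mice for these genes. Tinagl1 lost its call without knockout mouse 1 or 2 (up to 0.0519), Clec4b2 without knockout mouse 2 or AE9a mouse 3 (up to 0.0708), and Ankrd22, Dach1 and Fbp1 without any mouse but knockout mouse 3 (up to 0.204, 0.231 and 0.281). Fbp1 lost its call with the replicate number as a block as well.

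Among markers of stem and progenitor cells 1 of 24 rose and 1 fell, where 1.5% and 0.591% of all genes tested did. Prom1, the gene of CD133, read 4.98, 4.45 and 5.96 in knockout mice and 6.85, 7.51 and 7.78 in AE9a mice (-2.25 ± 0.49, adjusted p = 0.0101). Gfi1b, a repressor needed for erythroid and megakaryocytic cells, read 8.18, 8.53 and 8.78 in knockout mice and 7.01, 6.86 and 6.67 in AE9a mice (1.65 ± 0.42, adjusted p = 0.0312). Both separated the groups fully. The call of Prom1 was lost without knockout mouse 1 or 2 or AE9a mouse 3 (up to 0.112), and that of Gfi1b without each of the 6 mice and with quantile normalization (up to 0.137).

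Erythroid genes were uneven. Car1, the carbonic anhydrase of early erythroid cells, read 8.55, 9.39 and 9.61 in knockout mice and 4.96, 5.02 and 4.71 in AE9a mice. The difference was 4.28 ± 0.69 (19.5-fold, adjusted p = 0.000504) and held in all 17 settings, with knockout mice near the normal controls, whose mean was 9.99. It was the only one of 16 erythroid genes to pass, where 1.5% of all genes tested rose, and 9 were higher before adjustment. Knockout mice lay above all AE9a mice for 10 of the 16, against 11.8% of all genes, and the median was 0.92. With the 6 arrays alone 9 erythroid genes passed, and 7 rose with the 12 arrays and with array weights. These fits called 841, 887 and 2027 of all genes tested higher, in that order, against 332 in the main fit. Rhag, a membrane protein of the Rh complex, read 6.03, 6.45 and 8.89 in knockout mice and 4.7, 4.56 and 4.57 in AE9a mice (2.52 ± 0.71, adjusted p = 0.0551). The mean of 4 erythroid markers was 6.36, 6.61 and 7.34 in knockout mice and 4.91, 4.88 and 4.75 in AE9a mice, and the part of red cell precursors in these differences was not tested.

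Ctse, a protease of red cell precursors and gut, read 10.91, 10.78 and 10.18 in knockout mice and 7.26, 6.87 and 7.47 in AE9a mice (3.42 ± 0.51, adjusted p = 0.000204), with normal controls at 11.03. Car5b, a mitochondrial carbonic anhydrase, rose by 3.45 ± 0.51 (adjusted p = 0.000147). Among enzymes and carriers of heme synthesis, Fech, which inserts the iron, rose by 1.43 ± 0.38 (adjusted p = 0.0373), while Slc25a37, the mitochondrial iron importer, fell by 1.91 ± 0.40 (adjusted p = 0.0069). Ctse and Car5b kept their calls in all settings, Slc25a37 lost its call without knockout mouse 1 (0.0633), and Fech lost it without each of the 6 mice (up to 0.208). Fech lost its call also with the replicate number as a block and with quantile normalization.

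Of 16 B cell genes 1 fell and 0 rose, where 0.591% of all genes tested fell, and 9 were lower before adjustment. Blk, a kinase of the B cell receptor, read 5.4, 4.79 and 5.6 in knockout mice and 6.54, 6.9 and 6.74 in AE9a mice (-1.46 ± 0.38, adjusted p = 0.0331). It lost its call with the 12 arrays alone and without any mouse but knockout mouse 3 (up to 0.257). The median of the 16 genes was -0.75, and 10 of them separated the groups with knockout mice below, where 11.7% of all genes do. Between 0 and 4 of them fell in the other settings except array weights, which gave 8. Array weights called 1432 of all genes tested lower, against 131 in the main fit. The 4 measured B cell markers averaged 5.77 to 6.44 in knockout mice and 6.95 to 7.66 in AE9a mice, so a smaller share of B cells and less RNA per cell cannot be told apart. T and NK cell genes had 0 of 19 past the threshold in limma (1 higher and 4 lower before adjustment, with knockout mice below all AE9a mice for 10) and megakaryocyte genes 0 of 12 (3 lower before adjustment), with marker means between 5.03 and 5.69 in both groups.

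The reported targets of miR-126 showed no common shift at passage 1. Of 23 measured targets 1 rose and 0 fell, against 1.5% of all genes higher, and their median was 0.08. Before adjustment 4 were higher and 3 lower. Knockout mice lay above all AE9a mice for 7 targets and below them for 3, where 11.8% and 11.7% of all genes separate so. Spred1, an inhibitor of Ras and ERK signalling and the best known target, read 9.37, 8.81 and 9.61 in knockout mice and 7.95, 8.16 and 7.63 in AE9a mice. All knockout mice were higher, with a difference of 1.35 ± 0.37 (2.55-fold, adjusted p = 0.047). That call was lost in 10 of 17 other settings, including the fits without each of the 6 mice (adjusted p up to 0.187). The normal controls averaged 6.92 and the mice with added miR-126 averaged 8.87.

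Errfi1, the inhibitor of the EGF receptor, read 10.32, 10.57 and 10.33 in knockout mice and 9.73, 9.79 and 9.05 in AE9a mice (0.88 ± 0.52, adjusted p = 0.57). Fzd7, a Wnt receptor, read 6.27, 6.17 and 6 in knockout mice and 5.28, 5.42 and 5.49 in AE9a mice (0.75 ± 0.24, adjusted p = 0.107). Adam9, a membrane protease, differed by 0.96 ± 0.29 and Pitpnc1, a lipid transfer protein, by -1.28 ± 0.39 (adjusted p = 0.0843 and 0.0818). Errfi1, Fzd7 and Adam9 separated the groups with knockout mice higher, and Pitpnc1 separated them with knockout mice lower. Feedback genes of the ERK pathway had 1 of 13 past the threshold, again Spred1, against 1.5% of all genes higher, with a median of 0.05.

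The genes that make up the fusion were also measured, though the array does not tell the fusion from the mouse genes. Runx1 read 10.29, 10.32 and 10.41 in knockout mice and 9.71, 9.87 and 9.89 in AE9a mice (0.51 ± 0.25, adjusted p = 0.414). Runx1t1, the ETO gene, read 5.5, 5.7 and 5.44 in knockout mice and 6.17, 6.34 and 6.43 in AE9a mice, a fall of 0.76 on the log2 scale (SE 0.20, adjusted p = 0.0345). The normal controls averaged 5.34 for Runx1t1. Its call was lost without each of the 6 mice (up to 0.144).

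Genes of growth and division did not pass. Cell cycle genes had 0 of 28 past the threshold in limma and 0 at an unadjusted p under 0.05, with a median of 0.09, and 0 of them separated the groups in either direction. MYC and ribosome biogenesis genes had 0 of 21, with 3 higher before adjustment, although knockout mice lay above all AE9a mice for 12, against 11.8% of all genes, and the median was 0.42. Mitochondrial respiratory chain genes had 0 of 19 (median 0.29, 2 higher before adjustment) and housekeeping genes 0 of 7 (median 0.12, 0 before adjustment). Among p53 targets 2 of 14 rose, where 1.5% of all genes tested rose. Cdkn1a, the cell cycle inhibitor p21, read 11.32, 11.39 and 11.32 in knockout mice and 9.96, 10.31 and 10.15 in AE9a mice (1.20 ± 0.31, adjusted p = 0.035), and Phlda3 rose by 1.09 ± 0.28 (adjusted p = 0.0351). Both lost their calls without each of the 6 mice (up to 0.163 and 0.173), and Phlda3 also with cyclic loess and with quantile normalization.

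Of matrix genes 3 of 15 rose, where 1.5% of all genes tested rose: Vcan, the protease Mmp14 (2.13 ± 0.49, adjusted p = 0.0152) and its inhibitor Timp1 (1.94 ± 0.44, adjusted p = 0.0139). Mmp14 lost its call without knockout mouse 1 or 3 or AE9a mouse 3 (up to 0.0872) and Timp1 without knockout mouse 1 or AE9a mouse 2 or 3 (up to 0.0832). Of immediate early genes 1 of 18 rose, against the same 1.5% of all genes. It was Egr2, a transcription factor of macrophages, at 9.62, 9.15 and 9.34 in knockout mice and 7.59, 7.57 and 7.56 in AE9a mice (1.79 ± 0.44, adjusted p = 0.0233). The groups were wide apart for Egr2, yet the call was lost without any mouse but knockout mouse 3 (up to 0.124).

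The other lists were also counted without knockout mouse 3. In that fit 370 of all 22180 genes tested rose and 177 fell. Of MHC class I genes 2 rose, of class II genes 1, and of macrophage genes 2 rose and 1 fell. Mast cell and basophil genes again had 0 past the threshold in limma, erythroid genes 1 higher and B cell genes 1 lower. Of stem and progenitor markers 0 rose and 1 fell, and of heme synthesis genes 0 rose and 1 fell. Matrix genes had 2 higher and immediate early genes 1. The reported targets of miR-126, the ERK feedback genes and the p53 targets had 0 past the threshold. Inflammatory cytokines and chemokines had 1 higher and NF-kappaB feedback genes 1 lower. Sex-linked genes had 1 of 4 lower (Eif2s3y), where 0 passed with all mice. T and NK cell, megakaryocyte, primary granule, Toll-like receptor, cell cycle, MYC, respiratory chain and housekeeping genes stayed at 0 in that limma fit.

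The next question was whether these differences were particular to the first passage. An interaction contrast set the knockout minus AE9a difference at passage 1 against the mean of the same difference at passages 2 to 4. It called 386 genes: 364 where passage 1 was higher (1.64% of all genes tested) and 22 where it was lower (0.0992%). Of the 332 genes higher at passage 1, 184 were among those 364 (55.4% of the 332 and 50.5% of the 364), and of the 131 lower genes 15 were among the 22 (11.5% and 68.2%). Both contrasts use the same 6 passage 1 arrays, so these shares are not independent evidence.

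Of the 54 measured interferon genes, 22 had a higher difference at passage 1 than later and 0 a lower one, with a median of 1.51. The shares of all genes tested were 1.64% and 0.0992%. The knockout minus AE9a difference of Usp18 was 3.86 at passage 1, then -0.93, 1.26 and 0.48 at passages 2, 3 and 4 (SE 0.48), and passage 1 exceeded the later mean by 3.59 (adjusted p = 0.000483). Slfn5 gave 3.29, then -1.89, 0.70 and 0.00 (SE 0.43), and at passage 2 it was lower in knockout leukaemia (adjusted p = 0.00895). By arm, Slfn5 averaged 5.10, 7.79 and 6.57 in knockout mice of passages 2, 3 and 4, and 7, 7.09 and 6.57 in AE9a mice, all AE9a means above the 4.83 to 4.88 of AE9a mice at passage 1. Usp18 likewise averaged 8.06, 8.39 and 8.01 in AE9a mice of passages 2, 3 and 4.

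Fcgr1 had differences of 3.99 at passage 1, then -1.82, 1.03 and 0.07 (SE 0.45). Passage 1 exceeded the later mean by 4.23 (adjusted p = 8.35e-05). Tph1 gave 4.55, then 2.12, 0.56 and -1.18 (SE 0.67), and Mcpt1 4.56, then 0.76, 0.11 and 1.81 (SE 0.51), each with a passage 1 difference above the later mean (adjusted p = 0.00318 and 0.000704). Car1 was not shown to differ by passage, at 4.28 at passage 1, then 1.15, 4.44 and 2.77 (SE 0.69, interaction adjusted p = 0.51).

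The named neutrophil genes kept their direction at later passages. Of the 14 granule and S100 genes, 0 passed the interaction contrast in either direction, with a median of -0.18. Olfm4 gave differences of -3.05, -3.48, -5.42 and -5.33 at passages 1 to 4 (SE 0.81), with an adjusted p under the threshold at each passage (0.0407, 0.012, 0.000467 and 0.000237). Ceacam10 gave -3.29, -2.78, -3.62 and -4.18 (SE 0.72), also past the threshold at each passage. S100a9 gave -2.12, -1.17, -1.60 and -1.58 (SE 0.55), and passed at passage 1 alone. Csta2, a stefin A gene, did not pass at passage 1 (-0.29 ± 0.70, adjusted p = 0.963) and was lower in knockout mice later, with differences of -2.71, -5.60 and -6.59 at passages 2, 3 and 4; its interaction of 4.68 was the largest of all genes tested.

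**Figure D5:**
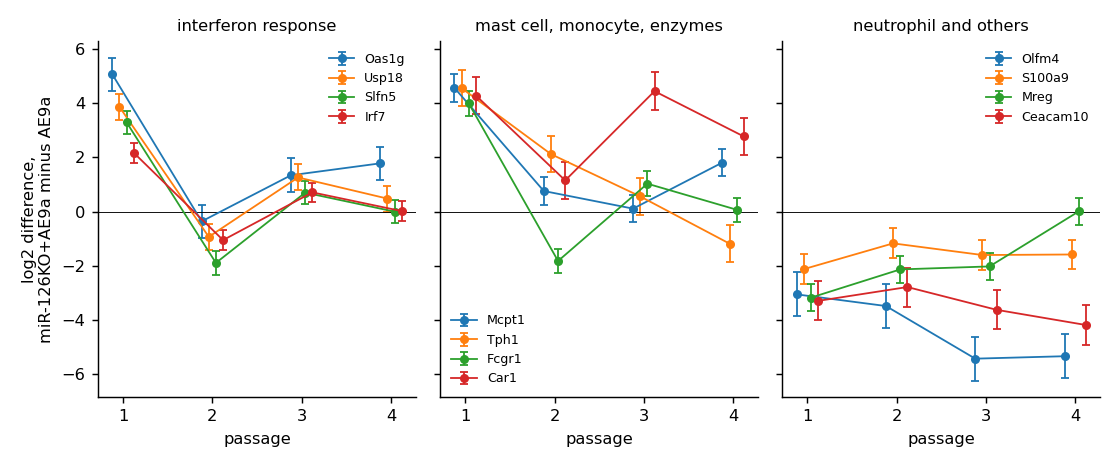
Knockout minus AE9a log2 difference at passages 1 to 4 for 12 named genes, with points slightly offset and bars of 1 standard error from the limma fit. The interferon genes start at 2.17 to 5.06 at passage 1 and lie between -1.89 and 1.78 later, while Olfm4 and Ceacam10 stay below -2 at all 4 passages.

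Falls tied to passage 1 were few. Adgrl4, an adhesion receptor of endothelium, read 5.98, 6.01 and 5.84 in knockout mice and 8.32, 8.09 and 8.09 in AE9a mice at passage 1 (-2.22 ± 0.52, adjusted p = 0.0178), and the later differences were 0.83, 0.86 and 1.06. Its call at passage 1 was lost with the 12 arrays alone and without any mouse but knockout mouse 3 (up to 0.084). Its passage 1 difference minus the later mean was -3.14 (adjusted p = 0.00337). Lrrk2 showed -2.63 at passage 1 and -1, 0.84 and 0.87 later (interaction -2.87, adjusted p = 0.0114). Mreg gave -3.17, -2.13, -2.02 and 0.01.

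Knockout leukaemia was also set against leukaemia with added miR-126 at passage 1, a comparison that shares the 3 knockout arrays with the one above. It called 96 genes higher (0.433% of all genes tested) and 33 lower (0.149%) in the knockout. Of the 54 interferon genes 20 were higher and 0 lower (median 1.07), of 17 monocyte genes 1 was higher (median 0.18), and of the 14 granule and S100 genes 0 passed (median -0.89). Side by side, the knockout differed from added miR-126 and from AE9a by 4.15 and 5.06 for Oas1g, by 4.29 and 4.56 for Mcpt1, by 4.71 and 4.55 for Tph1, by 4.51 and 4.28 for Car1 and by 4.06 and 3.99 for Fcgr1. Klf4 differed by 1.32 from added miR-126 (adjusted p = 0.544) and by 2.50 from AE9a.

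Among genes lower in the knockout than with added miR-126, the named falls were immunoglobulin genes and Tnfsf9. Igkv4-59, a kappa light chain variable gene, read 4.74, 5.19 and 5.34 in knockout mice and 9.25, 7.12 and 8.72 in mice with added miR-126 (-3.27 ± 0.56, adjusted p = 0.00172). Tnfsf9, the ligand of the costimulatory receptor 4-1BB, read 6.71, 6.34 and 6.7 in knockout mice and 8.06, 10 and 8.9 in mice with added miR-126 (-2.40 ± 0.45, adjusted p = 0.00453). Against AE9a these genes differed by -1.42 and 0.58 (adjusted p = 0.24 and 0.751), so neither passed there.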

How the data were processed

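RNA of sorted donor marrow cells from 39 mice was measured on 1-colour arrays, 1 per mouse. The deposited log2 values of 27037 probe sets were used, made by the authors with RMA and Partek 6.0 per the submitters' processing notes; their filters and batch steps are not stated there, and 0 columns were left unused. Groups came from the array titles. Probe sets with 1 gene symbol in the platform annotation (23521) were used, those with several (1814) or none (1702) were not, and for 1082 genes with several probe sets the one with the highest mean was kept, which left 22180 genes.

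One linear model with a mean per group was fitted to all 39 arrays in limma 3.58.1 under R 4.3.3 (26 residual degrees of freedom), and 3 contrasts were tested: knockout minus AE9a at passage 1, that difference minus its mean at passages 2 to 4, and knockout minus added miR-126 at passage 1. A gene passed at a Benjamini-Hochberg adjusted p under 0.05 over all genes. A ± is the model's standard error, whose median was 0.222 for the main contrast. The number of arrays limits the precision. The fit was run on simulated data with independent noise, of the same size in every array for a given gene. That run therefore does not show how arrays of unequal noise affect the counts.

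Named genes were the 12 largest rises and 12 largest falls that passed without overlap between the groups (symbols of predicted genes, small RNAs, odorant receptors and pseudogenes passed over), up to 4 members per list with the smallest adjusted p, the 4 largest rises and falls of the other contrasts, and Egfl7, Runx1t1, Runx1, Errfi1, Spred1, Fzd7 and Zzef1. Another 28 genes were named after their values were seen. The members, the 37 gene lists (492 of 541 symbols measured) and the tests were chosen with earlier results of these data known. Alternatives were other sets of arrays in the fit, a block for the replicate number, a trended prior, a filter on dim genes, every probe set, array weights, cyclic loess, quantile normalization, array spread as a covariate, a 2-fold minimum and leaving out each array.

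The deviations of same-numbered knockout and AE9a mice from their group means correlated at r of -0.298, -0.054 and -0.315 for numbers 1, 2 and 3. Mice of different numbers gave -0.067 to 0.293. With 3 mice a group the deviations are tied to one another, so these values cannot decide whether the numbers pair the mice. The labels do not state it, and no pairing was used.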

Additional observations from a re-analysis of the deposited data

Results flagged for a closer look

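For 49 of the named genes the knockout minus AE9a difference at passage 1 differed from the mean of that difference at passages 2 to 4 in limma's interaction contrast (adjusted p under 0.05). The values below are the log2 size of that gap, passage 1 minus later. Of the 49 genes 44 also passed at passage 1 alone, 45 lay higher at passage 1 and 4 lower. Named genes were chosen largely by their passage 1 values or by this contrast, so the 44 follow in part from that choice. Over all genes, 184 of the 364 higher in the contrast and 15 of the 22 lower passed likewise at passage 1.

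Interferon response genes made up the largest group, and several of the lists from which genes were named were interferon lists. The gap was 4.14 for Oas1g, 3.57 for Oas2 and 2.85 for Oas3. It was 3.59 for Usp18, 3.69 for Slfn5, 3.04 for Zbp1, 3.03 for Rtp4, 2.79 for Ifi213, 2.78 for Mx1 and 2.64 for Mx2. The regulators gave 2.41 for Socs1, 2.28 for Irf7, 2.03 for Stat2 and 1.63 for Irf9. The sensors gave 1.76 for Tlr9, 1.62 for Dhx58 and 1.13 for Tlr3, and the chemokine Cxcl11 gave 1.5. Among GTPases and antigen presentation genes it was 3.04 for Igtp, 2.78 for Irgm2, 2.63 for Irgm1 and 1.76 for Tap1.

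Myeloid and mast cell genes followed. The gap was 4.23 for Fcgr1, 3.38 for Anpep, 2.89 for Ocstamp, 2.66 for Tnfrsf11a, 2.33 for Ms4a6d, 2.18 for Ms4a4c, 1.89 for Ccr2, 1.64 for Maf and 2.73 for Egr2. It was 4.05 for Tph1, 3.67 for Mcpt1, 2.63 for Mcpt2, 3.08 for Car5b and 2.86 for Ctse. The predicted gene BC018473 gave 4.14. Matrix genes and their inhibitor gave 3.36 for Mmp13, 2.88 for Vcan, 2.84 for Timp1 and 2.11 for Mmp14. Cdkn1a gave 1.64 and Procr 1.16.

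For 2 stefin A genes, Csta2 at 4.68 and Stfa2 at 4.11, the gap came from later passages, since neither passed at passage 1 and both were lower in knockout mice at passages 2, 3 and 4. The genes with a lower difference at passage 1 were Adgrl4 at -3.14, Lrrk2 at -2.87, Cd79b at -2.21 and N4bp2l1 at -1.81. No outlier statistic was computed within groups of 3 mice; values without each mouse stand beside the results.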

How the results depend on the processing

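None of the 463 called genes changed sign in the 18 settings with 1 probe set per gene that tested it. Signs were not compared with every probe set. Most of these settings could not turn a sign. A change of arrays outside the compared groups, the replicate block, the prior, the filter and the 2-fold minimum leave the difference itself unchanged. Leaving out a mouse or weighting arrays cannot turn a gene whose groups do not overlap (330 of 332 higher and 131 of 131 lower genes). For such genes only cyclic loess, quantile normalization and the spread covariate could. Of the 82 named genes that passed, 30 kept their call in all 17 settings. The sizes of the counts depend on the fit. The counts given here are for knockout against AE9a at passage 1 (463 in the text), for passage 1 against later passages (386) and for knockout against added miR-126 (129), in that order where all 3 stand together. With only the 6 arrays compared, the count against AE9a was 1399. With the 12 arrays of passage 1 and controls, the counts against AE9a and against added miR-126 were 1270 and 318. Without arrays with added miR-126, the count against AE9a was 984 and that against later passages 708. Array weights gave 3459, 3369 and 3696, the array spread as a covariate 963, 616 and 232, and a fit without the 8 arrays of SD below 1.8 gave 1223, 832 and 258. Cyclic loess gave 794 against AE9a. The cause of these shifts was not tested. Leaving out 1 array gave 132 to 547, 161 to 427 and 55 to 133. The trended prior, the filter on dim genes, every probe set, quantile normalization and the 2-fold minimum kept all counts within 1.5 times. The replicate number as a block gave 407, 374 and 119, and of the listed groups it left 30 interferon and 4 monocyte genes higher. Whether the numbers pair the mice is not known, so no conclusion on the effect's size is drawn from that fit.

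Signs turned only for genes that did not pass. Csta2 was 0.04 with array weights and Kdm5d 0.01 with cyclic loess. With 1 mouse left out, Kdm5d ranged from -1.14 to 0.51, Uty from -1.51 to 0.44, Zzef1 from -0.06 to 0.02, Ccl5 from -0.17 to 0.36, Xist from -2.74 to 0.30 and Hprt from -0.10 to 0.57. The alternatives were applied to data of which earlier results were known.

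With 3 mice a group, a median standard error of 0.222 and probe sets near the array's floor, small changes and dim genes could not be resolved. Without mouse 3, 2 knockout mice carry the comparison, and the spread is taken from all groups.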

Other observations

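Several gene groups were not described above. Over all genes tested 1.5% rose and 0.591% fell. Among transcription factors of myeloid differentiation 3 of 15 rose (Maf, Klf4 and Egr2) and 1 fell (Runx1t1), with a median of 0.50. Of 5 Fc gamma receptor genes only Fcgr1 passed; Fcgr3, the low-affinity receptor, differed by -0.74 (adjusted p = 0.131). Of the 6 stefin A genes 1 fell, with a median of -2.06. Without knockout mouse 3, where 370 of all genes tested rose and 177 fell, 3 of the transcription factors rose and 0 fell, and 2 stefin A genes fell. Stroma and endothelium genes had 0 of 16 past the threshold in limma (median -0.14, with 3 lower at an unadjusted p under 0.05).

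Single genes outside these groups were named after their values were seen. Anpep, the aminopeptidase CD13, read 9.27, 8.84 and 9.24 in knockout mice and 6.18, 6.3 and 5.93 in AE9a mice (2.98 ± 0.62, adjusted p = 0.00713; 0.0501 without knockout mouse 1). S1pr1, the receptor by which lymphocytes follow sphingosine-1-phosphate out of tissues, read 6.03, 5.33 and 6.18 in knockout mice and 7.94, 8.58 and 7.85 in AE9a mice (-2.28 ± 0.45, adjusted p = 0.00461; 0.0568 without knockout mouse 2). Slc6a4, the serotonin transporter, read 7.74, 7.01 and 6.21 in knockout mice and 5.27, 6.18 and 5.56 in AE9a mice (1.32 ± 0.31, adjusted p = 0.018). Its call was lost in 5 of 17 other settings (up to 0.222): with the 6 arrays alone, and without knockout mouse 1 or 2 or AE9a mouse 1 or 3. Penk, proenkephalin, read 4.57, 4.54 and 4.3 in knockout mice and 6.23, 5.86 and 9.01 in AE9a mice (-2.56 ± 0.62, adjusted p = 0.0239), with AE9a mouse 3 far above its group and the call lost without it (0.231) or any knockout mouse (0.0843, 0.0969 and 0.0577 without mice 1, 2 and 3). The call of Penk was also lost with the 6 arrays alone.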
